A study of Mus musculus with 24 samples.

Results

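The RNA exposed on the outer membrane of murine blood cells was searched for 10 abundant housekeeping mRNAs, those of Gapdh, Actb, Actg1, Tmsb4x, Eef1a1, Tpt1, Fth1, Ftl1, Pfn1 and Cfl1. They were taken as a list of names, and are 10 of the 21502 genes with a protein-coding row in a surface table. Surface RNA was profiled with AMOUR, in which intact paraformaldehyde-fixed cells are held on lectin beads and the exposed RNA is amplified in place with T7 RNA polymerase. The paper states that RNA from inside the cell cannot be wholly excluded by any current method, AMOUR included. On its live human cord blood mononuclear cells, a probe against GAPDH mRNA gave no surface signal. The part of intracellular RNA in the values below was not tested. There were 3 libraries of each of 5 cell types of C57BL/6 mice. B cells, natural killer (NK) cells and T cells, the last purified with a CD8 T cell kit, came from spleen. Monocytes and a lineage-depleted fraction named HSPCs, for hematopoietic stem or progenitor cells, came from bone marrow. Red cells were lysed in every sample. Age and sex of the mice are not given in the sources used here. Total RNA was also sequenced from mononuclear cells of the blood (PBMCs) of wild-type mice, with 3 libraries in each of 3 treatment groups that the labels name ct, WT and Y without explaining the letters. The labels do not say whether replicates came from separate animals, so that p-values measure only the spread between these libraries. A different sequencer was used for monocytes than for the other 12 surface libraries, and the platform and the cell type cannot be told apart for them.

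These mRNAs encode proteins that nearly every nucleated cell makes in large amounts. Actb and Actg1 encode the cytoplasmic actins, which form the filaments of the cell cortex. Tmsb4x encodes thymosin beta 4, which holds actin monomers in reserve. Pfn1 encodes profilin, which feeds monomers to growing filaments, and Cfl1 encodes cofilin, which severs and disassembles them. Eef1a1 encodes the elongation factor that brings aminoacyl-tRNA to the ribosome, and Tpt1 encodes the translationally controlled tumor protein. Gapdh encodes a glycolytic enzyme and is a common reference gene, as is Actb. Fth1 and Ftl1 encode the heavy and light chains of ferritin, the cytoplasmic iron store. The translation of both ferritin mRNAs is held back by iron regulatory proteins that bind a hairpin in the 5′ leader when iron is scarce.

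How well a read can be given to a single gene differs between these mRNAs, which the sequences show. Sequences and positions are from GENCODE release M21 on GRCm38, matched by name. The submitters' processing notes name mm10, the same assembly, for the surface libraries, but the transcript set is not stated. Actb (chr5:142903115-142906754, minus strand) and Actg1 (chr11:120345690-120348542, minus strand) have coding parts of 1125 bases each that differ at 128 positions, an identity of 88.6%. The first 60 coding bases hold 9 of these differences, shown in capitals.
Actb-201: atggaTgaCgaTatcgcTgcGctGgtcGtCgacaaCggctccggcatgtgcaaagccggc
Actg1-202: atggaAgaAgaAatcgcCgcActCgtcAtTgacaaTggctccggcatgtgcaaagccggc
The copy of Tpt1 (chr14:75845093-75848525, plus strand) named Tpt1-ps3, a pseudogene, has no difference over the 516 coding bases of Tpt1. Its first 60 bases are printed because the reads of this stretch cannot be divided between the genes.
Tpt1-201: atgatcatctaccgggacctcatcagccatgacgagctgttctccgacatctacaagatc
Tpt1-ps3-201: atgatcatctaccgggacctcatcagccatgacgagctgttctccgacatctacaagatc
Likewise, Gm7336 carries all 999 coding bases of Gapdh (chr6:125161715-125166467, minus strand).

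The ferritin mRNAs of Fth1 (chr19:9980598-9985098, plus strand) and Ftl1 (chr7:45457944-45459884, minus strand) share the hairpin loop letters CAGTG in the 5′ leader. The window of 30 bases around them, with the loop letters in capitals, differs at 3 positions between the genes.
Fth1-201: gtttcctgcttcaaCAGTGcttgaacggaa
Ftl1-201: gtgtcttgcttcaaCAGTGtttgaacggaa
Read on the transcript strand, CAGTG alone lies within the first 120 bases of 16.4% of 58725 protein-coding transcripts. The longer TGCTTCAACAGTG, the stretch that both windows share and that contains it, lies there in 5 transcripts, all of Fth1, Ftl1 or Ftl1-ps1. These are matches of letters, and the surface data do not bear on binding.

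To see how much of each mRNA is identical to other genes, every stretch of 31 bases was looked up in all M21 transcripts. No stretch of Tmsb4x and 0.963% of those of Pfn1 occur in another gene. The share was 12.9% for Fth1, 28.5% for Cfl1, 35.1% for Actb, 42.9% for Tpt1 and 57.1% for Actg1. It reached 72.3% for Eef1a1, 84.1% for Gapdh and 85.4% for Ftl1. Tmsb4x (chrX:167207093-167209315, minus strand) and Pfn1 (chr11:70651850-70654644, minus strand) are thus the members with the least ambiguous reads, and the values of the others are uncertain to the extent that copies took or gave reads. Eef1a1 lies at chr9:78478449-78489151 (minus strand) and Cfl1 at chr19:5490455-5495201 (plus strand).

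The deposited surface values are transcripts per 1000000 (TPM), in which all RNAs of a library share a fixed total. Depth is lost in this unit, and no counting interval can be given. Protein-coding rows held 0.645% to 2.96% of a library in the 12 libraries other than monocytes, and 16.9 to 18.1% on monocytes. Each mRNA is therefore given as deposited and as TPM per 1000000 of the protein-coding TPM of its library, here called coding TPM, which compares it with other mRNAs. The labelled cell types carried their markers on this second scale. Markers of B cells summed to 8980 to 10051 coding TPM where the label names that type, those of T cells to 3211 to 3873, of NK cells to 4884 to 8492, of monocytes to 14446 to 16212 and of HSPCs to 4928 to 6323, each above all other surface libraries. Markers of other cells were also present. Neutrophil markers summed to 7550 to 8511 on monocytes, 899 to 2651 on HSPCs and 948 to 2056 on NK cells. Erythroid markers summed to 2286 to 6873 on NK cells, 3248 to 4024 on HSPCs and 245 to 1434 on T cells. On B cells they summed to 37.6 to 543. Monocyte markers summed to 963 to 1501 on HSPCs, 992 to 1345 on T cells and 624 to 871 on NK cells. HSPC markers summed to 1376 to 2238 on monocytes.

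As deposited, all 10 mRNAs were most abundant on monocytes, and no library of another cell type reached the monocyte values. Actb was at 1600, 1482 and 1638 TPM on monocytes, 434, 375 and 295 on B cells, 113, 269 and 290.1 on NK cells, 42.9, 132 and 101 on T cells and 54.2, 109.9 and 84.4 on HSPCs. The glycolytic Gapdh was at 278, 278 and 311 TPM on monocytes and from 2.69 to 29.5 TPM on the other cells. The other actin mRNA, Actg1, spanned 567 to 658 TPM on monocytes and 6.91 to 91.8 elsewhere. Of the actin binders, Tmsb4x spanned 633 to 734 TPM on monocytes and 11.8 to 143 elsewhere, Pfn1 268 to 283 and 19.7 to 90.1, and Cfl1 295 to 330.2 and 5.75 to 39.0. Eef1a1 spanned 515 to 582 TPM on monocytes and 16.5 to 193 elsewhere, and Tpt1 184 to 209.9 and 18.8 to 75.0. The ferritin mRNAs had the same order, with 180.4 to 194 against 9.98 to 60.5 TPM for Fth1 and 455 to 554 against 11.3 to 72.3 for Ftl1. The lowest monocyte library exceeded the highest other library by 2.46-fold for Tpt1, the smallest gap, and by 9.40-fold for Gapdh, the largest. A threshold of 50 TPM, which the study set on transcripts to call surface RNAs, is applied here to the sum of each gene. It was passed by all 10 in every monocyte library, by 8, 7 and 5 in B cell libraries, by 3, 6 and 6 in NK cell libraries, by 0, 3 and 2 in T cell libraries and by 2 in every HSPC library. The share of all protein-coding genes above the threshold is not given, so these counts are no result about the 10 alone. Protein-coding rows as a whole held 16.9 to 18.1% of a monocyte library and 0.645% to 2.96% of the others.

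**Figure D1:**
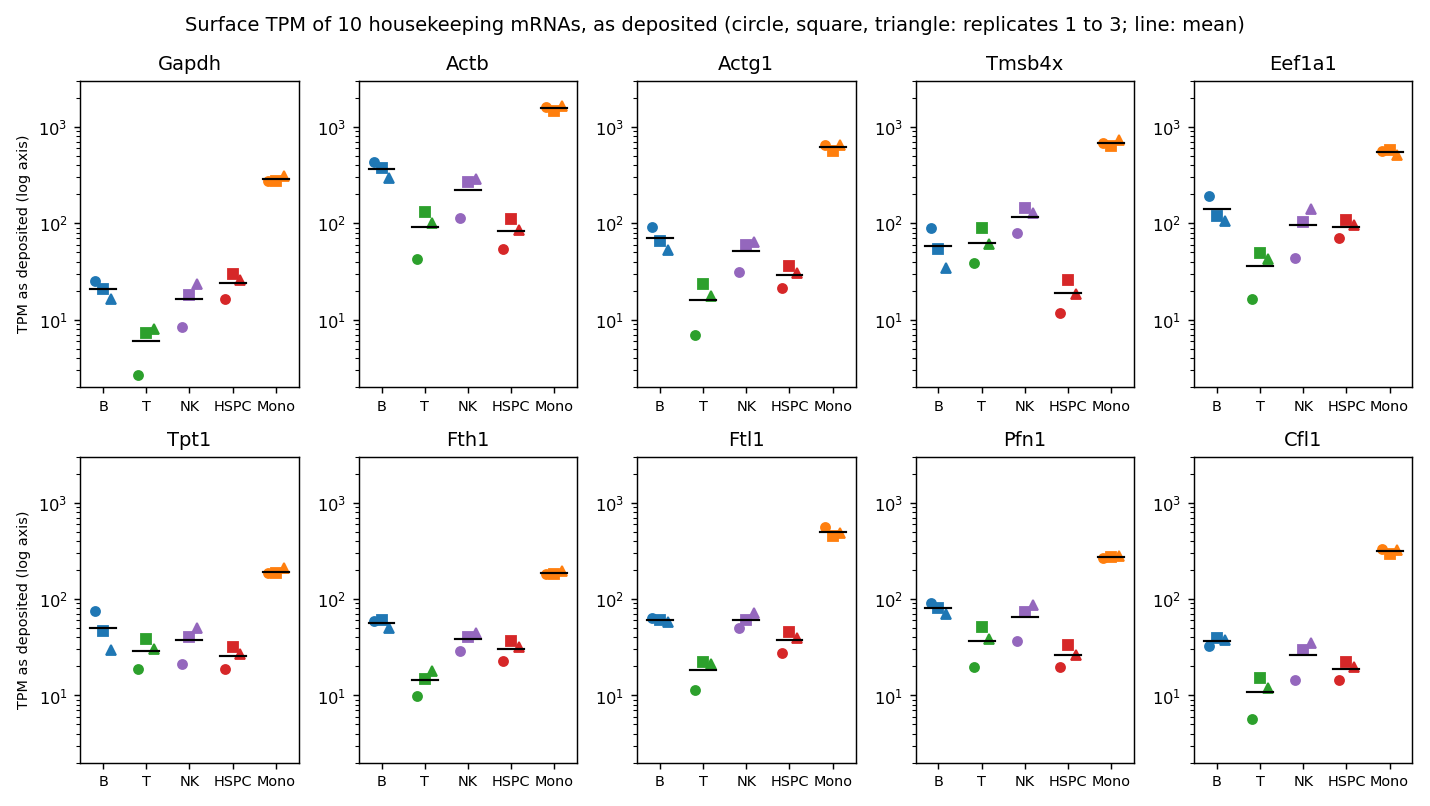
TPM as deposited (log axis) of the 10 mRNAs in the 15 surface libraries, by cell type (B, T, NK, HSPC, Mono for monocytes). Points are single libraries and the line is the mean of 3; the 3 monocyte libraries lie above all others in each panel.

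limma was used to set each cell type against the average of the remaining 4 types on log2(TPM + 1), and 10 of 10 were called higher on monocytes and 0 lower, where 98.7% of all 3297 genes tested were higher and 0.88% lower. A call is a Benjamini-Hochberg adjusted p below 0.05 over all genes tested. On T cells, 10 were called lower and 0 higher, beside 96.9% and 0.425% of all genes, and on HSPCs 8 and 0, beside 83.7% and 1.33%. These shares are close to those of all genes tested. B cells gave 1 higher call (background 7.92%) and 1 lower (58.9%), and NK cells 0 higher (2.27%) and 1 lower (58.8%). The median log2 difference of monocytes was 3.50 for the 10 mRNAs and 3.20 for all genes tested, and that of T cells -2.07 and -1.35.

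On the scale of coding TPM, which all further surface results use, Actg1 was the 1 mRNA with every monocyte library above all other libraries. The 10 mRNAs together held 3.75 to 4.00% of the protein-coding TPM on B cells, the highest, and 2.43 to 2.49% on HSPCs, the lowest. They held 2.87 to 3.36% on NK cells, 2.91 to 2.98% on monocytes and 2.68 to 2.92% on T cells, which overlapped with each other. All 10 ranked among the first 300 of the protein-coding genes in each of the 15 libraries. Actb ranked between 2 and 23, and was first of the 10 in every cell type but HSPCs, where Eef1a1 had the higher mean. Gapdh, at ranks 62 to 267, had the lowest level of the 10 on B cells, T cells and NK cells. On HSPCs the lowest mean was that of Tmsb4x, and on monocytes that of Fth1.

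**Figure D2:**
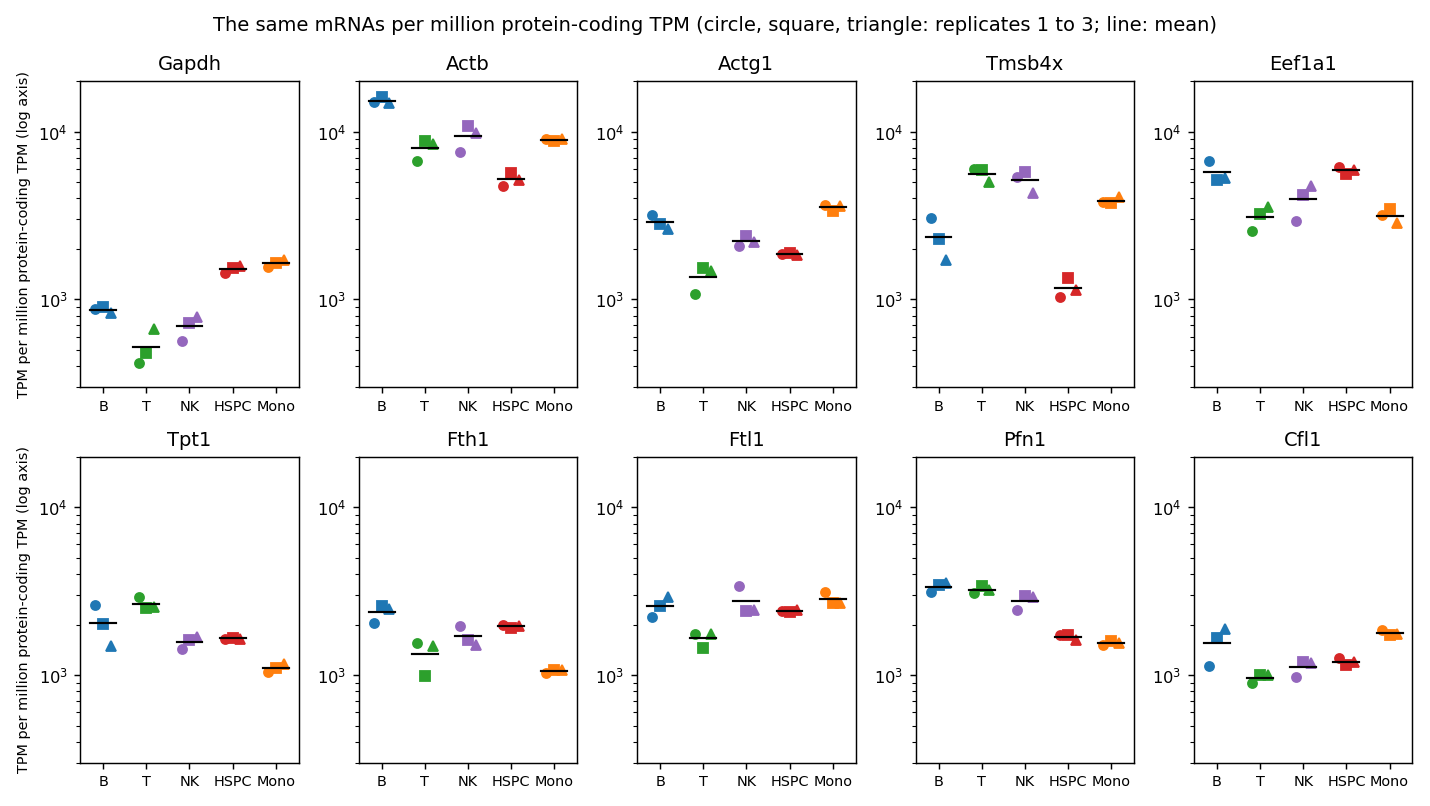
The same mRNAs in coding TPM (TPM relative to the protein-coding total of the library, log axis with the same range in each panel), by cell type. Points are single libraries and the line is the mean of 3; the monocyte libraries stand above all others for Actg1 alone, against all 10 mRNAs as deposited.

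limma was fitted here on log2(value + 10) of the 2883 genes above 100 coding TPM in at least 3 libraries, and every log2 difference below is on that scale (± SE, n = 3 per cell type). On B cells 6 of the 10 were called higher and 1 lower, beside 31.6% and 40.2% of all genes. T cells had 3 higher and 6 lower (20.5% and 53.6% of all genes), NK cells 1 and 1 (22.4% and 16.8%), HSPCs 3 and 4 (34.5% and 37.5%) and monocytes 5 and 4 (47.7% and 26.2%). The higher calls of B cells stood furthest above the background, but 1 of the 6 was left when a single transcript stood for each gene, as described further on. Of the 34 calls, 22 kept their sign on each of 3 other scales: TPM as deposited, TPM rescaled without rRNA and 3 transcripts that share the same values, and quantile-normalized values. Sign and call are kept apart below: 18 of the 34 kept both as deposited, 17 after rescaling and 28 with quantile values, and of the 6 higher calls of B cells only that of Actb kept both on all 3. Without a filter on low values, 5 calls were lost at the same log2 differences: Cfl1 on B cells, Fth1 on T cells and HSPCs, and Tmsb4x and Ftl1 on monocytes.

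The other 12 calls changed sign on at least 1 scale, and the scales also shifted all genes. The median log2 difference of all genes was 3.20 on monocytes, -1.35 on T cells, -0.87 on HSPCs, -0.55 on B cells and -0.50 on NK cells as deposited, and 2.53, -1.97, 0.45, -0.40 and -0.66 after the rescaling. It was 0.29, -0.44, -0.04, -0.10 and 0.03 on the scale of coding TPM. Measured from these medians, all 10 differences that turned sign as deposited and all 9 that turned after rescaling stayed on the called side, and the 1 that turned with quantile values, that of Eef1a1 on monocytes, did not.

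**Figure D3:**
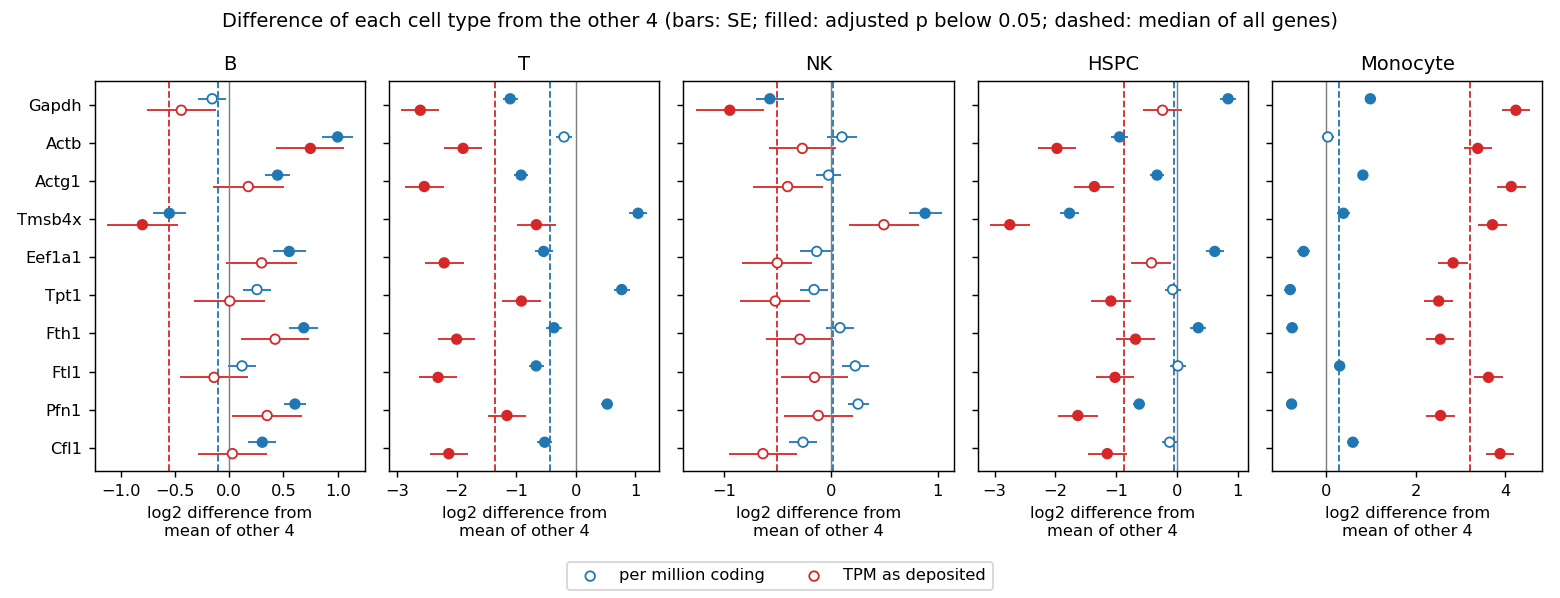
Log2 difference of each cell type from the average of the remaining 4 for the 10 mRNAs, in coding TPM (blue) and as TPM as deposited (red). Bars are SE, filled points have an adjusted p below 0.05, and dashed lines are the median of all genes tested; the red line lies at 3.20 for monocytes and at -1.35 for T cells, with the red points on both sides of it.

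Actb was highest on B cells and lowest on HSPCs, and Actg1 highest on monocytes and lowest on T cells. Actb was at 15045, 16054 and 14735 coding TPM on B cells, 7581, 10804 and 9804 on NK cells, 9029, 8761 and 9027 on monocytes, 6656, 8730 and 8390 on T cells and 4746, 5700 and 5167 on HSPCs. All B cell libraries lay above and all HSPC libraries below the rest, while NK cells overlapped both monocytes and T cells. The log2 difference was 1.00 ± 0.14, adjusted p = 1.07e-05 on B cells, and -0.94 ± 0.14, adjusted p = 2.04e-05 on HSPCs, with the same signs on all 3 other scales, the latter not called after rescaling (-0.24, adjusted p = 0.552). Actg1 had another order, with 3636, 3351 and 3624 on monocytes, 3181, 2824 and 2635 on B cells, 2078, 2390 and 2188 on NK cells, 1864, 1886 and 1849 on HSPCs and 1071, 1538 and 1471 on T cells. No neighbours in this order overlapped. Actg1 was higher on monocytes (0.82 ± 0.12, adjusted p = 1.11e-05) and B cells (0.45 ± 0.12, adjusted p = 0.00299) and lower on T cells (-0.92 ± 0.12, adjusted p = 3.93e-06), with these signs on each scale. Of the 3 other scales, the B cell difference passed only with quantile values, with 0.18 (adjusted p = 0.648) as deposited and 0.34 (0.420) after rescaling. As deposited without the monocyte libraries it was called at 1.29 (adjusted p = 0.00348), where the median of all genes was 0.66. Actg1 was lower on HSPCs (-0.33 ± 0.12, adjusted p = 0.0197), with the opposite sign after rescaling (0.36). With all transcript types of the gene summed, neither the monocyte difference (0.20, adjusted p = 0.0963) nor the HSPC difference (-0.20, adjusted p = 0.0912) was called. The HSPC call was also lost with a single transcript for each gene (-0.25, adjusted p = 0.188), without any 1 of the 3 HSPC libraries (adjusted p between 0.0562 and 0.0684) and without the monocytes (-0.13, adjusted p = 0.371).

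The ratio of the actins within a library does not depend on the total that a library is scaled to, though quantile normalization can change it. In protein-coding rows it separated the cells more simply. Actb was 4.73, 5.68 and 5.59 times Actg1 on B cells, 6.21, 5.68 and 5.70 on T cells and 3.65, 4.52 and 4.48 on NK cells, but 2.55, 3.02 and 2.79 on HSPCs and 2.48, 2.61 and 2.49 on monocytes. The 6 marrow libraries lay below the 9 spleen libraries. This holds for protein-coding rows only. Of Actg1 with all transcript types summed, other types made up to 50.7% on NK cells, 40.6% on HSPCs and 4.81% on monocytes. Whether the ratio separates the libraries with all types summed was not tested. All spleen libraries are of lymphocytes and all marrow libraries of monocytes or HSPCs, so tissue and cell type cannot be told apart. In PBMC total RNA the ratio, there of gene values not split by transcript type, was 4.99 to 5.49 over 9 libraries, in the range of the lymphocytes.

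Of the actin-binding members, Tmsb4x had the widest range and the least ambiguous sequence. It was at 5947, 5887 and 5027 coding TPM on T cells and 5341, 5742 and 4329 on NK cells, then at 3818, 3742 and 4047 on monocytes, 3069, 2304 and 1715 on B cells and 1032, 1346 and 1139 on HSPCs. T cells and NK cells overlapped, and the others did not overlap with their neighbours. The fold between the highest and the lowest mean was 4.79. Tmsb4x was lower on HSPCs (-1.77 ± 0.15, adjusted p = 6.76e-08) and B cells (-0.55 ± 0.15, adjusted p = 0.00459) and higher on NK cells (0.88 ± 0.15, adjusted p = 2.73e-04) and monocytes (0.38 ± 0.15, adjusted p = 0.0339), with the same signs on the 3 other scales. As deposited without the monocyte libraries, however, the B cell difference was 0.14, adjusted p = 0.752. The NK call was not made on 2 of the 3 scales, with 0.50 (adjusted p = 0.171) as deposited and 0.24 (0.510) after rescaling, and the B cell call not after rescaling (-0.65, adjusted p = 0.0922). It was higher on T cells (1.05 ± 0.15, adjusted p = 1.65e-05), but -0.66 as deposited and -1.26 after rescaling. The B cell call was lost without B cell replicate 3 (-0.34, adjusted p = 0.0667), and the monocyte call without any 1 monocyte library or HSPC replicate 1 (adjusted p between 0.0536 and 0.117).

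Pfn1 divided the spleen lymphocytes from the marrow cells, where tissue and cell type likewise cannot be told apart. It was at 3122, 3429 and 3540 coding TPM on B cells, 3075, 3401 and 3210 on T cells and 2452, 2952 and 2914 on NK cells, against 1730, 1738 and 1622 on HSPCs and 1514, 1600 and 1558 on monocytes. The 9 spleen libraries lay above the 6 marrow libraries. Pfn1 was higher on B cells (0.61 ± 0.10, adjusted p = 4.90e-05), with the same sign but no call at 0.35 (adjusted p = 0.341) as deposited and 0.50 (0.194) after rescaling. It was higher on T cells (0.53 ± 0.10, adjusted p = 1.65e-04), but -1.15 as deposited, -1.77 after rescaling and not called with quantile values (0.26, adjusted p = 0.0560). It was lower on HSPCs (-0.62 ± 0.10, adjusted p = 4.01e-05), with the opposite sign after rescaling (0.076), and lower on monocytes (-0.77 ± 0.10, adjusted p = 3.42e-06), with the opposite sign as deposited (2.55) and after rescaling (1.58). Cfl1 went another way, with 1863, 1744 and 1767 on monocytes, 1263, 1143 and 1200 on HSPCs, 975, 1189 and 1184 on NK cells and 892, 998 and 996 on T cells. It was higher on monocytes (0.59 ± 0.13, adjusted p = 6.59e-04) and lower on T cells (-0.52 ± 0.13, adjusted p = 0.00196), both called with the same sign on all scales. On B cells, at 1127, 1670 and 1879, the call (0.31 ± 0.13, adjusted p = 0.0455) was made on none of the 3 other scales. As deposited without the monocyte libraries it was made at 1.07 (adjusted p = 0.0105), where the median of all genes was 0.66. In coding TPM the call was lost without any 1 of 10 of the libraries, down to 0.15 (adjusted p = 0.341) without B cell replicate 3. The difference rose to 0.52 without B cell replicate 1. Pfn1 was thus 3.45, 3.41 and 3.22 times Cfl1 on T cells and 0.812, 0.917 and 0.882 times Cfl1 on monocytes.

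Eef1a1 had its highest means on HSPCs and B cells, and Tpt1 on T cells. Eef1a1 was at 6177, 5623 and 5864 coding TPM on HSPCs and 6689, 5163 and 5255 on B cells, against 2926, 4172 and 4748 on NK cells, 3183, 3440 and 2838 on monocytes and 2562, 3241 and 3544 on T cells. HSPCs and B cells overlapped with each other and lay above the rest. Eef1a1 was higher on B cells (0.55 ± 0.15, adjusted p = 0.00427) and lower on T cells (-0.54 ± 0.15, adjusted p = 0.00487), with the same signs on all scales. The B cell difference was not called at 0.30 (adjusted p = 0.425) as deposited and 0.45 (0.292) after rescaling, and the T cell difference not without T cell replicate 1 (adjusted p = 0.0530). It was higher on HSPCs (0.62 ± 0.15, adjusted p = 0.00182), but -0.42 as deposited and not called with quantile values (0.26, adjusted p = 0.214). Its lower level on monocytes (-0.51 ± 0.15, adjusted p = 0.00731) turned to 2.83 as deposited, 1.86 after rescaling and 0.090 with quantile values, and lost its call without monocyte replicate 3 (adjusted p = 0.0534). Tpt1 was at 2915, 2510 and 2544 on T cells, 2599, 2012 and 1492 on B cells, 1644, 1669 and 1643 on HSPCs, 1429, 1622 and 1689 on NK cells and 1041, 1097 and 1156 on monocytes, so that T cells and B cells overlapped and monocytes lay below all others. Tpt1 was higher on T cells (0.78 ± 0.13, adjusted p = 7.78e-05) and lower on monocytes (-0.80 ± 0.13, adjusted p = 4.94e-05), both with the opposite sign as deposited (-0.91 and 2.51) and after rescaling (-1.53 and 1.55). The monocyte call was lost with all transcript types of the gene summed (-0.033, adjusted p = 0.794), and the difference was -0.32 with the near-copy added.

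Gapdh divided the same spleen and marrow cells as Pfn1, but in the opposite direction. It was at 1569, 1641 and 1714 coding TPM on monocytes and 1439, 1531 and 1571 on HSPCs, against 879, 896 and 825 on B cells, 565, 725 and 789 on NK cells and 417, 476 and 663 on T cells. Monocytes and HSPCs overlapped, as did NK cells and T cells. Gapdh was higher on monocytes (0.99 ± 0.13, adjusted p = 4.01e-06) and lower on T cells (-1.10 ± 0.13, adjusted p = 1.47e-06) and NK cells (-0.57 ± 0.13, adjusted p = 0.00221), called with the same sign on each scale, and higher on HSPCs (0.84 ± 0.13, adjusted p = 2.51e-05), with the opposite sign as deposited (-0.24) and with a single transcript a gene (-1.43, described further on). The NK call was lost without the monocytes (-0.34, adjusted p = 0.0767), and its sign turned as deposited without them (0.12, adjusted p = 0.847). Actb, the other common reference gene, was 17.1, 17.9 and 17.9 times Gapdh on B cells and 3.30, 3.72 and 3.29 times Gapdh on HSPCs.

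The ferritin chains differed from each other. The heavy chain mRNA Fth1 was at 2044, 2588 and 2492 coding TPM on B cells, 1983, 1920 and 1971 on HSPCs, 1955, 1627 and 1516 on NK cells, 1548, 983 and 1495 on T cells and 1025, 1066 and 1067 on monocytes. B cells lay above the rest, and monocytes overlapped T cells. Fth1 was higher on B cells (0.69 ± 0.13, adjusted p = 2.63e-04) and lower on T cells (-0.36 ± 0.13, adjusted p = 0.0226), with the same signs on each scale. The median of all genes on T cells was -0.44 in coding TPM, below the value of Fth1. The B cell difference was not called at 0.42 (adjusted p = 0.228) as deposited and 0.58 (0.102) after rescaling. The T cell difference was not called with quantile values (-0.24, adjusted p = 0.110) and came to -0.15 (adjusted p = 0.284) without T cell replicate 2. It was higher on HSPCs (0.35 ± 0.13, adjusted p = 0.0276), but -0.68 as deposited and not called with quantile values (0.19, adjusted p = 0.192), a call also lost without any 1 HSPC library (adjusted p between 0.0659 and 0.0849) or without the monocytes (0.17, adjusted p = 0.317). It was lower on monocytes (-0.76 ± 0.13, adjusted p = 9.14e-05), with the opposite sign as deposited (2.55) and after rescaling (1.59).

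The light chain mRNA Ftl1 was at 3130, 2688 and 2670 coding TPM on monocytes, 3386, 2409 and 2442 on NK cells, 2215, 2568 and 2911 on B cells, 2416, 2372 and 2430 on HSPCs and 1748, 1451 and 1765 on T cells. T cells lay below the rest, and the other 4 overlapped with their neighbours. Ftl1 was lower on T cells (-0.66 ± 0.13, adjusted p = 2.29e-04), called with the same sign on each scale. Its higher call on monocytes (0.30 ± 0.13, adjusted p = 0.0433), of the same sign on each scale, is close to the median of all genes there (0.29) and was lost without any 1 of 10 of the libraries (adjusted p between 0.0577 and 0.208). The ratio of Fth1 to Ftl1 was 0.327, 0.397 and 0.400 on monocytes, below the 0.578, 0.675 and 0.621 of NK cells and the 0.678 to 1.01 of the other cells. Erythroid cells are rich in ferritin mRNA. The NK library with the highest Ftl1, replicate 1, also had the highest sum of erythroid markers, 6873, 2286 and 3366 in the order of the replicates, and their part in the ferritin values was not tested.

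The transcripts behind these gene sums were not the same in all cells. Actb-201 (1920 bases) took 99.7%, 99.2% and 97.7% of the Actb TPM on monocytes, but 84.8%, 56.3% and 46.2% on B cells. Most of the rest on B cells lay on Actb-207, Actb-208 and Actb-202, of 1242, 930 and 536 bases. Actg1-203, a model of 326 bases, took 23.1% to 48.8% of Actg1 on B cells, at most 14.8% on HSPCs and 4.19% on T cells, and was at 0 on NK cells and monocytes. Fth1-204 (516 bases) was at 0 in B cell replicate 1 and took up to 48.8% of Fth1 in the other B cell libraries. It also took up to 32.3% on T cells, where Fth1-201 held 68.4%, 99.7% and 67.7%, and up to 27.6% on NK cells, where Fth1-201 held 72.4%, 99.5% and 100.0%, and it was at 0 on HSPCs and monocytes. T cell replicate 2, on which the call of Fth1 in the gene sums rests, is the T cell library with next to none of it. A read on a short model counts for more TPM than the same read on a long one. With the transcript of highest TPM of each gene alone, a setting added after the data were seen, B cells kept 1 of 6 higher calls, that of Pfn1 (0.61, adjusted p = 4.35e-05). Actb came to 0.38 (adjusted p = 0.0606), Eef1a1 to 0.30 (0.107), Fth1 to 0.20 (0.140) and Cfl1 to 0.17 (0.245), and Actg1 turned to -0.25 (0.181). On T cells the lower call of Fth1 was kept in this setting, at -0.54 (adjusted p = 9.31e-04) against -0.36 for the gene sum. The median of all genes on T cells was then -0.56.

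**Figure D4:**
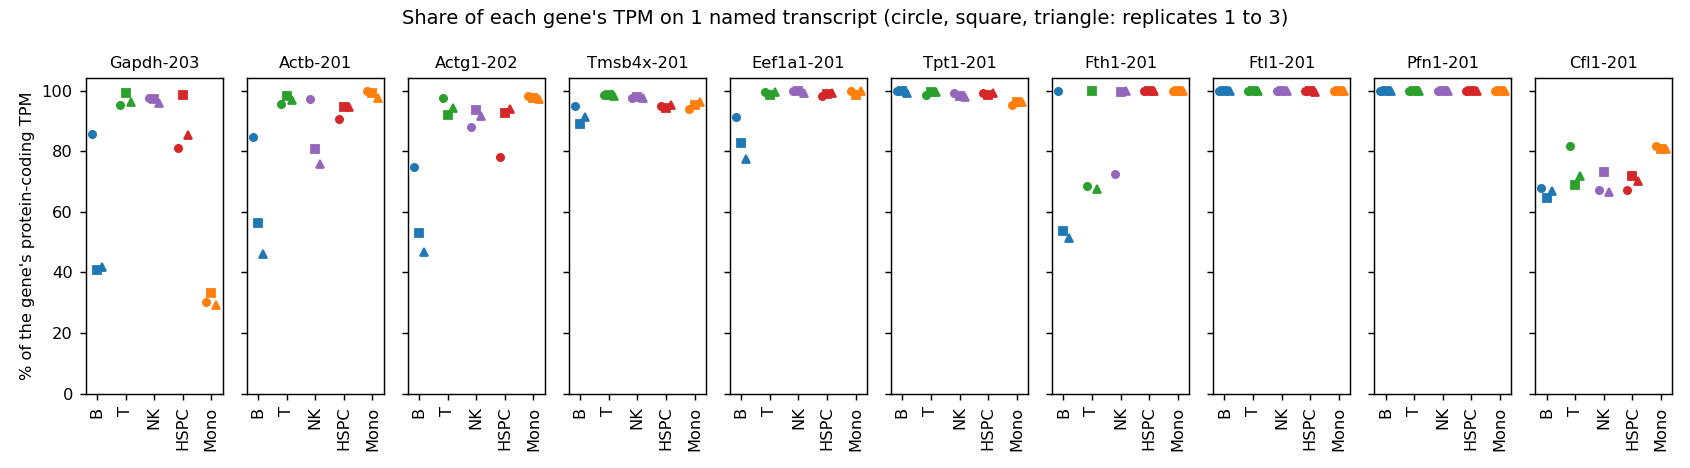
Share of each gene's protein-coding TPM (percent) that lies on the transcript named above the panel, in the 15 surface libraries by cell type. Points are single libraries; B cell replicates 2 and 3 are below replicate 1 for Gapdh, Actb, Actg1, Eef1a1 and Fth1, while Pfn1 lies at 100% throughout.

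Gapdh is the clearest case of such a split. Gapdh-203 (1420 bases) took 95.2%, 99.2% and 96.1% of the Gapdh TPM on T cells and 30.2%, 33.2% and 29.2% on monocytes. The remainder on monocytes lay on Gapdh-202 (52.3% to 54.2%) and Gapdh-201 (12.1% to 18.5%), of 1273 and 1272 bases. Neither exceeded 1.54% of Gapdh in any of the other 12 libraries. The monocytes also differ from these in platform, whose part was not tested. Since Gapdh-202 has the highest TPM over all libraries, the single-transcript setting compares a transcript that is nearly absent outside monocytes, and gave 6.31 on monocytes and -1.43 on HSPCs.

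Near-copies of the members also held TPM unevenly. The pseudogene Tpt1-ps3, whose sequence is printed above, was at 111, 82.0 and 101 TPM on monocytes and 5.42, 15.3 and 18.9 on B cells, and listed at 0 in every T cell, NK cell and HSPC library. On monocytes this came to 30.6% to 37.7% of the sum of gene and copy. The copy Gm7336 of Gapdh was at 49.2, 72.7 and 34.4 TPM on monocytes and at most 0.686 elsewhere. Adding to each member the copies that hold at least 30% of its stretches, also a later setting, kept all 34 calls. It moved Tpt1 on monocytes from -0.80 to -0.32 (adjusted p = 0.00778), and Tpt1 was then also called on B cells (0.51), NK cells (-0.40) and HSPCs (-0.32). Gapdh on monocytes went from 0.99 to 1.23. Transcripts of other types made 39.3% to 52.0% of Tpt1 on monocytes when all types of a gene were summed.

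Housekeeping genes are often taken as constant between cells. The range between the highest and the lowest of the 5 cell type means had a median of 1.21 on the log2 scale over the 10 mRNAs and of 1.80 over all genes tested. Ftl1 had the smallest range, 0.77, with 9.12% of all genes below it, followed by Cfl1 (0.89, 13.3%) and Eef1a1 (0.93, 14.6%). Gapdh (1.67, 45.4%) and Actb (1.55, 41.5%) were near the middle of all genes, and Tmsb4x (2.26, 62.9%) above it. The genes were not matched on level. Genes high in a single cell type could also pass the filter, and these have a wide range by construction. The 10 mRNAs were high in every library, so the medians do not compare like with like.

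Across the 15 libraries the members did not move as 1 group. As a description of libraries that share their cell types, Pearson's r of the log2 levels was 0.82 for Actg1 and Cfl1, the closest pair of the 45, and -0.85 for Gapdh and Pfn1, the most opposed. The 5 other genes whose log2 level was most like that of the summed members were Arhgap25, Ptk2b, H2-T23, Plekha2 and Bin1, with r between 0.95 and 0.97 over 15 libraries. All 5 had their highest mean on B cells, for H2-T23 399 coding TPM against 107 on HSPCs. The sum that they were picked to resemble is also highest on B cells, so this is no separate result.

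Related genes were read from 5 lists, of which the actin cytoskeleton had 23 of 26 tested genes, glycolysis 9 of 13, translation factors 12 of 12, iron handling 6 of 11 and other reference genes 13 of 14. On monocytes 20 actin cytoskeleton genes were called higher and 0 lower, beside 47.7% and 26.2% of all genes, with a median log2 difference of 0.85 beside 0.29. Dstn, which encodes the cofilin relative destrin, was at 319 ± 19.1 against 18.2 to 119 elsewhere (log2 difference 2.60 ± 0.12, adjusted p = 2.89e-11) there. On HSPCs 2 were called higher and 15 lower, beside 34.5% and 37.5% of all genes, with a median of -0.56 beside -0.04. They include Tmsb10, a close relative of Tmsb4x, at 537 ± 37.1 against 1584 to 5090 elsewhere (log2 difference -2.33 ± 0.14, adjusted p = 1.50e-09), and the filament binders Lcp1 (176 ± 11.6) and Vasp (129 ± 5.04). Tmsb10 was highest on T cells, at 4967 ± 184 against 511 to 2875 elsewhere (log2 difference 1.66 ± 0.14, adjusted p = 5.34e-08). On B cells 12 were called higher and 8 lower, beside 31.6% and 40.2% of all genes, with a median of 0.30 beside -0.10. On NK cells they were 1 and 8, beside 22.4% and 16.8%, with a median of -0.20 beside 0.03, and on T cells 2 and 10, beside 20.5% and 53.6%, with a median of -0.13 beside -0.44. Coro1a, which encodes the leukocyte actin binder coronin 1A, was at 3278 ± 389.9 against 418 to 1476 elsewhere (log2 difference 2.00 ± 0.13, adjusted p = 2.48e-09) on B cells, and Tagln2, which encodes the actin binder transgelin 2, at 174 ± 17.8 against 369 to 819 elsewhere (log2 difference -1.67 ± 0.11, adjusted p = 2.72e-09) on B cells.

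Of the 9 glycolysis genes tested, 7 were called higher and 1 lower on monocytes, beside 47.7% and 26.2% of all genes, with a median of 0.78 beside 0.29. On HSPCs 6 were higher and 0 lower, beside 34.5% and 37.5%, with a median of 1.03 beside -0.04. On T cells 0 were higher and 9 lower, beside 20.5% and 53.6%, with a median of -0.56 beside -0.44. On NK cells 1 was higher and 6 were lower, beside 22.4% and 16.8%, with a median of -0.64 beside 0.03, and on B cells 2 and 4, beside 31.6% and 40.2%, with a median of -0.32 beside -0.10. Pgam1, which encodes phosphoglycerate mutase, was at 546 ± 39.4 against 48.6 to 317 elsewhere (log2 difference 2.17 ± 0.13, adjusted p = 5.59e-10) on monocytes, and Hk1, which encodes a hexokinase, at 30.9 ± 3.73 against 58.7 to 275 elsewhere (log2 difference -1.73 ± 0.11, adjusted p = 9.47e-10) on B cells. Among the 12 translation factors, 8 were called higher and 1 lower on HSPCs, beside 34.5% and 37.5% of all genes, with a median of 0.53 beside -0.04. The higher and lower calls were 4 and 7 (median -0.37) on B cells, 3 and 7 (median -0.50) on T cells, 2 and 0 (median 0.08) on NK cells and 3 and 3 (median -0.18) on monocytes, beside the shares of all genes given for these cells. Eef2, the elongation factor of translocation, was at 1176 ± 107 against 1350 to 2670 elsewhere (log2 difference -0.80 ± 0.13, adjusted p = 3.44e-05) on monocytes, the translation factor gene Eif5a at 555 ± 95.1 against 747 to 2191 elsewhere (log2 difference -1.08 ± 0.11, adjusted p = 4.98e-07) on T cells, and Naca, a subunit of the nascent chain complex, at 239.6 ± 67.1 against 343 to 557 elsewhere (log2 difference -0.89 ± 0.12, adjusted p = 9.93e-06) on B cells.

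Of the 6 iron handling genes tested, out of 11, 3 were called higher and 1 lower on HSPCs, beside 34.5% and 37.5% of all genes, and 4 higher and 1 lower on monocytes, beside 47.7% and 26.2%, with medians of 0.39 and 0.56 beside -0.04 and 0.29. They were 0 and 4 (median -0.52) on B cells, beside 31.6% and 40.2% of all genes (median -0.10). On T cells they were 0 and 5 (median -0.76), beside 20.5% and 53.6% (median -0.44). On NK cells they were 2 and 1 (median 0.07), beside 22.4% and 16.8% (median 0.03). On HSPCs Steap3, a ferric reductase, was at 309.9 ± 24.2 against 2.82 to 195 elsewhere (log2 difference 2.85 ± 0.22, adjusted p = 1.94e-08), and Tfrc, the transferrin receptor, at 232 ± 45.9 against 8.01 to 143 elsewhere (log2 difference 1.99 ± 0.25, adjusted p = 3.12e-06). These genes are known from erythroid precursors. Both stood above all other libraries on HSPCs. The summed erythroid markers were at 3248 to 4024 on HSPCs and 2286 to 6873 on NK cells, and the part of erythroid cells in the values of Steap3 and Tfrc was not tested. Hmox1, which encodes the heme-degrading heme oxygenase 1, was at 131 ± 19.7 against 1.74 to 13.6 elsewhere (log2 difference 3.05 ± 0.14, adjusted p = 2.16e-11) on monocytes and at 2.13 ± 0.535 against 4.55 to 153 elsewhere (log2 difference -1.36 ± 0.14, adjusted p = 3.97e-07) on T cells. The 13 other reference genes had higher and lower calls of 3 and 7 (median -0.34) on B cells, beside 31.6% and 40.2% of all genes (median -0.10). On T cells they had 2 and 7 (median -0.43), close to the 20.5% and 53.6% of all genes (median -0.44). On NK cells they had 3 and 0 (median -0.05), beside 22.4% and 16.8% (median 0.03). On HSPCs these genes had 7 and 4 (median 0.40), beside 34.5% and 37.5% (median -0.04). On monocytes these genes had 4 and 1 (median 0.03), beside 47.7% and 26.2% (median 0.29). Of these, Rplp0, a protein of the ribosomal stalk, was at 1934 ± 102 against 2311 to 5341 elsewhere (log2 difference -0.98 ± 0.14, adjusted p = 9.74e-06) on monocytes, the polyubiquitin gene Ubb at 1375 ± 205 against 508 to 864 elsewhere (log2 difference 0.88 ± 0.14, adjusted p = 4.40e-05) on B cells and the cyclophilin gene Ppib at 144 ± 26.4 against 182 to 428 elsewhere (log2 difference -0.99 ± 0.11, adjusted p = 1.14e-06) on T cells. NK cells had no listed gene that was called and stood apart from all other libraries.

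Of the 21 differences of single related genes picked by the naming rule, 19 had a value on the 3 other scales, and 16 of these kept their sign on all 3. Steap3 and Tfrc on HSPCs had no value as deposited, since they were under the filter there. Tmsb10 on T cells came to -0.075 as deposited and -0.65 after rescaling, Rplp0 on monocytes to 2.36 and 1.38, and Eef2 on monocytes to 2.52 and 1.55.

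The counts of the lists moved with all genes. Higher and lower calls are given here over the list genes above the filter on each scale, beside the shares of all genes called higher and lower. On monocytes no list had a lower call as deposited or after rescaling. As deposited the calls on monocytes were 24 and 0 for actin cytoskeleton genes, 11 and 0 for glycolysis, 12 and 0 for translation factors, 5 and 0 for iron handling, and 13 and 0 for the other reference genes, beside 98.7% and 0.88%. After rescaling they were 24 and 0 for actin cytoskeleton genes, 13 and 0 for glycolysis, 12 and 0 for translation factors, 11 and 0 for iron handling, and 14 and 0 for the other reference genes, beside 96% and 2.17%. Quantile values gave 18 and 1 for actin cytoskeleton genes, 6 and 2 for glycolysis, 1 and 8 for translation factors, 4 and 2 for iron handling, and 5 and 4 for the other reference genes, beside 35.4% and 41.7%. On T cells no list had a higher call as deposited or after rescaling. As deposited the calls on T cells were 0 and 23 for actin cytoskeleton genes, 0 and 11 for glycolysis, 0 and 12 for translation factors, 0 and 5 for iron handling, and 0 and 11 for the other reference genes, beside 0.425% and 96.9%. After rescaling they were 0 and 24 for actin cytoskeleton genes, 0 and 13 for glycolysis, 0 and 12 for translation factors, 0 and 11 for iron handling, and 0 and 13 for the other reference genes, beside 0.431% and 98.1%. Quantile values gave 5 and 6 for actin cytoskeleton genes, 0 and 7 for glycolysis, 4 and 7 for translation factors, 0 and 3 for iron handling, and 3 and 5 for the other reference genes, beside 31% and 34.8%. On HSPCs the balance of the calls was lower as deposited in every list, and higher after rescaling in 4 of 5. As deposited the calls on HSPCs were 0 and 23 for actin cytoskeleton genes, 0 and 6 for glycolysis, 0 and 5 for translation factors, 0 and 5 for iron handling, and 1 and 9 for the other reference genes, beside 1.33% and 83.7%. After rescaling they were 2 and 3 for actin cytoskeleton genes, 10 and 1 for glycolysis, 8 and 0 for translation factors, 7 and 2 for iron handling, and 7 and 1 for the other reference genes, beside 44.4% and 11.8%. Quantile values gave 2 and 15 for actin cytoskeleton genes, 7 and 0 for glycolysis, 8 and 1 for translation factors, 3 and 2 for iron handling, and 6 and 3 for the other reference genes, beside 36.1% and 33.5%. On B cells lower calls outnumbered higher calls in every list as deposited and after rescaling. As deposited the calls on B cells were 3 and 8 for actin cytoskeleton genes, 0 and 6 for glycolysis, 0 and 7 for translation factors, 0 and 2 for iron handling, and 0 and 8 for the other reference genes, beside 7.92% and 58.9%. After rescaling they were 4 and 6 for actin cytoskeleton genes, 1 and 7 for glycolysis, 0 and 5 for translation factors, 0 and 7 for iron handling, and 0 and 6 for the other reference genes, beside 10.9% and 40.9%. Quantile values gave 9 and 7 for actin cytoskeleton genes, 2 and 5 for glycolysis, 3 and 7 for translation factors, 0 and 3 for iron handling, and 4 and 7 for the other reference genes, beside 31.7% and 37.7%. On NK cells lower calls also outnumbered higher calls in every list on these scales. As deposited the calls on NK cells were 0 and 14 for actin cytoskeleton genes, 1 and 8 for glycolysis, 0 and 2 for translation factors, 0 and 3 for iron handling, and 0 and 2 for the other reference genes, beside 2.27% and 58.8%. After rescaling they were 0 and 16 for actin cytoskeleton genes, 0 and 9 for glycolysis, 0 and 4 for translation factors, 1 and 4 for iron handling, and 0 and 7 for the other reference genes, beside 3.07% and 63.5%. Quantile values gave 3 and 10 for actin cytoskeleton genes, 1 and 6 for glycolysis, 2 and 0 for translation factors, 2 and 2 for iron handling, and 4 and 2 for the other reference genes, beside 23% and 26.4%.

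The PBMC libraries show the same mRNAs in total cellular RNA. The totals were 4686426 to 9055797 expected counts, and the 10 mRNAs held 2.91% to 3.27% of the protein-coding TPM (genes typed by GENCODE M21). Surface and PBMC tables were made with different assays, transcript sets and counters, so that levels are set side by side without a test. PBMC values are also per gene and not split by transcript type, while surface values sum protein-coding rows only. On the surface, other types made up to 50.7% of Actg1 on NK cells and up to 52.0% of Tpt1 on monocytes. Actb was at 7447 to 8461 coding TPM in PBMCs, Tmsb4x at 5571 to 7555 and Eef1a1 at 4917 to 5668. Pfn1 was at 1177 to 1403, below each of the 15 surface libraries, and Gapdh at 291 to 420.1 and Cfl1 at 793 to 911, each below 14. Tmsb4x and Fth1 (2134 to 2733) were exceeded in 0 surface libraries and lay above 12 and 13 of them. Tpt1 (2077 to 2783) lay above 11, while Ftl1 (2084 to 2862) overlapped 9. Actb and Tmsb4x were the first members in PBMCs, at ranks 7 and 8 of the protein-coding genes, and Gapdh the last, at ranks 194 to 308.

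**Figure D5:**
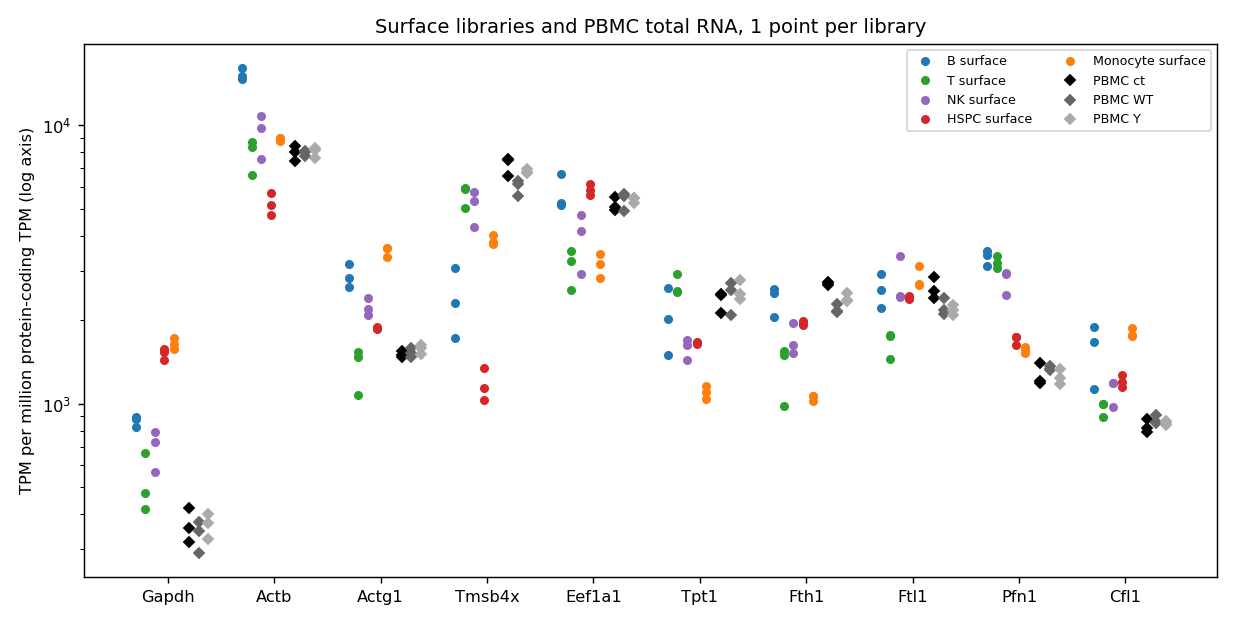
Coding TPM (log axis) of the 10 mRNAs, with the 15 surface libraries as circles colored by cell type and the 9 PBMC libraries as diamonds. All 15 surface points of Pfn1 and 14 of those of Gapdh and Cfl1 lie above the PBMC points, while 12 of Tmsb4x and 13 of Fth1 lie below them.

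The comparisons of the PBMC groups ask whether these mRNAs differed between treatments. edgeR's quasi-likelihood test called 0 of the 10 in WT against ct, in Y against ct and in Y against WT. Of all 11635 genes tested, 0.765% were called higher and 1.60% lower in WT against ct, 0.266% and 0.438% in Y against ct, and 0.438% and 0.817% in Y against WT. At an unadjusted p below 0.05 there were 3, 2 and 0 of the 10, all lower in the group named first, and DESeq2 called 1, 0 and 0. The share of all genes is not given for either count, so neither is read as a result about the 10. Fth1 was at 196, 197 and 235 normalized counts per 1000000 (CPM) in WT, 228, 232 and 216 in Y and 261, 268 and 263 in ct. All ct libraries lay above those of WT and Y. The log2 difference of WT from ct was -0.34 ± 0.09, adjusted p = 0.0786, and without WT replicate 3 it was -0.42 and called (adjusted p = 0.0332). Tmsb4x was at 446, 439 and 442 CPM in WT, below the 510.2, 499 and 501 of Y and the 566, 501 and 579 of ct. Its difference of WT from ct was -0.31 ± 0.09, adjusted p = 0.112 by edgeR and -0.31 ± 0.09, adjusted p = 0.0412 by DESeq2, the 1 call of that tool.

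Ftl1 was at 215, 195 and 211 CPM in WT and 208, 209 and 190.4 in Y, all below the 225, 277 and 248 of ct. The log2 differences were -0.27 ± 0.10, adjusted p = 0.222 for WT and -0.31 ± 0.10, adjusted p = 0.274 for Y. The other 7 mRNAs had differences between -0.11 and 0.07 with SE from 0.0865 to 0.108 over the 3 comparisons. These rest on 241 to 464 expected counts a library for Gapdh, the scarcest member, and 7045 to 13199 for Actb. Markers of other blood cells moved with the groups. Erythroid markers summed to 78302 to 84611 coding TPM in WT and 80281 to 86221 in Y but to 120007 to 140807 in ct, and platelet markers to 2823 to 3043, 3334 to 3612 and 4172 to 4598 in the same order. Neutrophil markers summed to 1384 to 1439, 4368 to 4388 and 1595 to 1864. Their part in the values of Fth1, Ftl1 and Tmsb4x was not tested, and in such mixed samples fewer cells of a type and less RNA per cell cannot be told apart. Of the related genes, 1 was called in the 3 PBMC comparisons, Ncoa4, the receptor that delivers ferritin to autophagy. It was at 22.2 ± 0.126 CPM in WT and 27.3 to 34.3 in ct (log2 difference -0.49 ± 0.10, edgeR adjusted p = 0.0123).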

How the data were processed

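Surface libraries: the authors trimmed reads (Trimmomatic in the methods, cutadapt in the submitters' processing notes), removed duplicates with the same barcode and ran Kallisto, and the deposited values are TPM per transcript. The murine transcript set is not given in the sources used here. Protein-coding rows were summed by gene name, as deposited and relative to the protein-coding total (coding TPM), and tested with limma 3.58.1 in R 4.3.3 with a mean-variance trend (1 fit of 15 libraries, 1 cell type against the average of the remaining 4, Benjamini-Hochberg adjustment). For PBMCs, the authors deposited RSEM expected counts per gene, which were rounded and tested with edgeR 4.0.16 (TMM, quasi-likelihood, its default filter, 1 fit of 9 libraries) and, as an alternative, DESeq2 1.42.0. The deposited PBMC TPM served for levels only.

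The members and lists were chosen with earlier results of these data known. Named genes are all members, up to 3 called genes per direction of the related lists that stood apart in a contrast, and 5 genes most like the summed members. A result of 1 related gene is not reported here. On simulated data with 200 genes changed by 2-fold, the fit of B cells recovered 91.0% (2883 genes) and that of WT against ct 68.5% (11635 genes). No replicates were copies of each other (chi-square per gene at least 4.74 in PBMCs, 0 identical values above 0 on the surface).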

Additional observations from a re-analysis of the deposited data

How the results depend on the processing

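Members called higher and lower, 1 and 1 on NK cells, 6 and 1 on B cells, 3 and 6 on T cells, 3 and 4 on HSPCs, 5 and 4 on monocytes, kept the same or near counts with a pseudocount of 1, with transcripts listed in all 5 tables and with copies added, except for NK cells with 2 lower after copies were added. The scale decided most: as deposited the counts were 0 and 1 on NK cells, 1 and 1 on B cells, 0 and 10 on T cells, 0 and 8 on HSPCs, 10 and 0 on monocytes, after rescaling 0 and 4 on NK cells, 1 and 0 on B cells, 0 and 10 on T cells, 4 and 1 on HSPCs, 10 and 0 on monocytes, and as deposited without monocytes 1 and 0 on NK cells, 7 and 0 on B cells, 0 and 7 on T cells, 1 and 3 on HSPCs. Quantile values gave 1 and 2 on NK cells and 1 and 5 on HSPCs, a pseudocount of 100 gave 2 and 1 on NK cells, all transcript types gave 3 and 2 on NK cells, leaving out the monocytes gave 1 and 0 on NK cells, the transcript of highest TPM gave 1 and 2 on B cells and 2 and 2 on NK cells, and no filter on low values gave 3 and 4 on monocytes. Log2 differences that changed sign as deposited were Tmsb4x on T cells -0.66, Tpt1 on T cells -0.91, Pfn1 on T cells -1.15, Gapdh on HSPCs -0.24, Eef1a1 on HSPCs -0.42, Fth1 on HSPCs -0.68, Eef1a1 on monocytes 2.83, Tpt1 on monocytes 2.51, Fth1 on monocytes 2.55 and Pfn1 on monocytes 2.55. After rescaling they were Tmsb4x on T cells -1.26, Tpt1 on T cells -1.53, Pfn1 on T cells -1.77, Actg1 on HSPCs 0.36, Pfn1 on HSPCs 0.076, Eef1a1 on monocytes 1.86, Tpt1 on monocytes 1.55, Fth1 on monocytes 1.59 and Pfn1 on monocytes 1.58, as deposited without monocytes Tmsb4x on B cells 0.14, Tpt1 on T cells -0.30, Pfn1 on T cells -0.55, Gapdh on NK cells 0.12 and Fth1 on HSPCs -0.048, with the transcript of highest TPM Actg1 on B cells -0.25 and Gapdh on HSPCs -1.43, and with quantile values Eef1a1 on monocytes 0.090. The fit as deposited without monocytes tested only 380 genes. Its median log2 difference of all genes was 0.66 on B cells, 0.44 on NK cells, -0.30 on HSPCs and -1.01 on T cells. Shares of all genes called are given above only for coding TPM, TPM as deposited, rescaled values and quantile values. The counts of the other settings are thus no result about the 10 alone. TPM as deposited, rescaled TPM and coding TPM differ in which RNAs share the denominator, while quantile values start from coding TPM. The cause of the changes was not tested for any setting. Leaving out 1 library at a time gave counts of higher and lower calls of 1 to 2 and 1 to 2 on NK cells, 5 to 6 and 0 to 1 on B cells, 3 to 3 and 5 to 6 on T cells, 2 to 3 and 3 to 4 on HSPCs, 3 to 5 and 3 to 4 on monocytes, and changed 34 of 510 single values to not called and 0 in sign. Replicate numbers did not pair the surface libraries as a whole: deviations from the group means correlated above 0.1 in 6 of 30 same-numbered pairs (-0.211 to 0.348), among them all 3 pairs of a T cell with an NK cell library (0.265 to 0.348) and no full set of any other pair of types, 7 of 15 libraries were closest to their own number, and in PBMCs 0 of 9 and 3 of 9. With the replicate block, in all 5 cell types, all 34 calls stayed, NK cells had 2 and 1, and PBMCs stayed at 0. In PBMCs, WT against ct had 0 lower calls, 1 with DESeq2 and 0 to 1 when 1 library was left out. Its other alternatives, and all of those of Y against ct and Y against WT, gave 0. Depth could not be judged on the surface, and 3 libraries a group limit both data sets.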
